A study of Mus musculus with 43 samples.

Results

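The fasting response of the ventromedial hypothalamus (VMH) was examined in laser-captured tissue of male mice (strain label C57/BL6, C57BL/6J in the study's methods) that carried a paternal deletion of Snord116, a cluster of small nucleolar RNAs from the Prader-Willi region. It was represented by 11 of the 43 samples of the series, of which 41 had a column in the table analysed here. These were the VMH of 6 mice that had fasted for 24 hours (Fast-85, Fast-86, Fast-100, Fast-101, Fast-305 and Fast-311) and of 5 mice fed ad libitum (Fed-111, Fed-125, Fed-127, Fed-308 and Fed-313), aged 16 to 19 weeks. The number in each name is the mouse, and values of the 5 fed libraries are given below in this order. Fasted and fed mice alike carried the deletion (B6(Cg)-Snord116tm1.1Uta/J), and no library of wild-type mice was used here. Each difference is thus one of feeding state within the deletion genotype. Each library held the RNA of 1 mouse, amplified before sequencing. The tissue was captured and turned into libraries in 3 batches, with 2 fasted mice and 1 fed mouse in batch 1 and 2 of each in batches 2 and 3. CPM stands for counts scaled to the depth of each library. Of 10127 genes in the table, 9594 had a CPM of at least 1 in 5 or more VMH libraries and were tested.

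The VMH is a nucleus of the mediobasal hypothalamus made up mostly of glutamatergic neurons. It is known for its part in energy expenditure, blood glucose control and the defence against low glucose, and its neurons sense leptin, insulin and glucose. Fasting lowers leptin and insulin, raises circulating corticosterone, lowers body temperature in mice and turns metabolism from glucose to fatty acids and ketone bodies. Genes were grouped by role, as heat-shock chaperones, osmolyte carriers, cold-inducible RNA-binding proteins, targets of the glucocorticoid receptor, fuel and sterol metabolism, and appetite signalling. These lists were chosen with earlier results of these data known, so their counts describe the data and test no forecast.

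Most markers were those of the labelled tissue, with Dlk1 and Pmch as exceptions. Fezf1, a transcription factor of VMH neurons, was at 172 to 256 CPM in the 11 VMH libraries and at 0.18 to 21.9 CPM in the 30 libraries of the arcuate (ARC), dorsomedial (DMH) and paraventricular (PVN) nuclei, without overlap. Gpr149, Zfp831, Cbln1 and Gda also had no overlap with the other nuclei, whereas Dlk1, also on the list of VMH markers and at 64.4 to 181 CPM, was lower in VMH than in any library elsewhere (367 to 1083 CPM). Npy of ARC, Avp and Crh of PVN and Hcrt and Npvf of the neighbouring DMH and lateral hypothalamus stood at medians of 3.00, 1.90, 0, 0.87 and 0.37 CPM in VMH. Their highest VMH values were 18.1, 2.76, 0.45, 11.9 and 6.30 CPM. Over the 30 libraries elsewhere, pooled, the medians were 3.28, 3.25, 1.85, 0.94 and 0.42 CPM and the highest values 1226, 1475, 126, 268 and 225 CPM. Pmch, a peptide of the lateral hypothalamus, was present in all 11 VMH libraries at 5.67 to 75.9 CPM with a median of 26.7. Elsewhere its median was 1.43 CPM, with a range of 0.23 to 631 CPM. Its log2 difference between fasted and fed VMH libraries was -0.10 ± 0.40, and its part in the results was not tested. The summed level of the 10 VMH markers, Dlk1 included, was 1708 to 2210 CPM in fasted and 1738 to 2193 CPM in fed libraries. Without Dlk1 it was 1586 to 2093 and 1662 to 2121 CPM. Of the 10 markers, 0 had an unadjusted p under 0.05 between the states, near the 6.98% of all genes. The summed levels of microglia, endothelium and blood markers overlapped between fasted and fed libraries (134 to 290 against 136 to 242 CPM, 115 to 188 against 146 to 201, and 2.21 to 67.4 against 6.33 to 31.1). Mural and fibroblast markers gave 81.7 to 106 against 74.7 to 97.1 CPM, and without Acta2 they gave 67.0 to 91.7 against 52.5 to 66.5 CPM, without overlap. In captured tissue a lower level can be fewer cells of a type or less RNA per cell, and these cannot be told apart.

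Depth ran lower in fasted libraries, with overlap. The fasted libraries had a median depth of 3.31 mega-reads (range 1.94 to 5.43) and the fed libraries one of 4.42 (range 3.44 to 5.91). A single read was worth 0.169 to 0.515 CPM, so a gene at 1 CPM was seen in only a handful of reads. RNA was amplified first, and several reads can stem from 1 original molecule. The median standard error of a log2 difference over all tested genes was 0.32, which gives a 95% interval of about 0.66 to either side. Depth was carried as a covariate in an alternative fit, and the calls it ended are given beside the genes.

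The first question was which genes of the VMH differed between fasted and fed mice. With limma on log2(CPM + 0.5) and batch as a covariate, 2 of 9594 genes (0.0208%) passed a Benjamini-Hochberg adjusted p under 0.1, and both fell with fasting. They were Hsph1, a co-chaperone of the Hsp70 family that acts as a nucleotide exchange factor, and Slc5a3, the sodium-coupled carrier that brings the osmolyte myo-inositol into cells. No gene rose past the threshold (0%). Genes with an unadjusted p under 0.05 numbered 670 (6.98%), with 329 higher (3.43%) and 341 lower (3.55%) in fasted mice. The fasted and fed libraries of a gene did not overlap in 48 cases (0.5%), 24 in each direction (0.25% each). The median log2 difference of all tested genes was -5.18e-05, with 4798 genes below 0 and 4796 above.

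**Figure D1:**
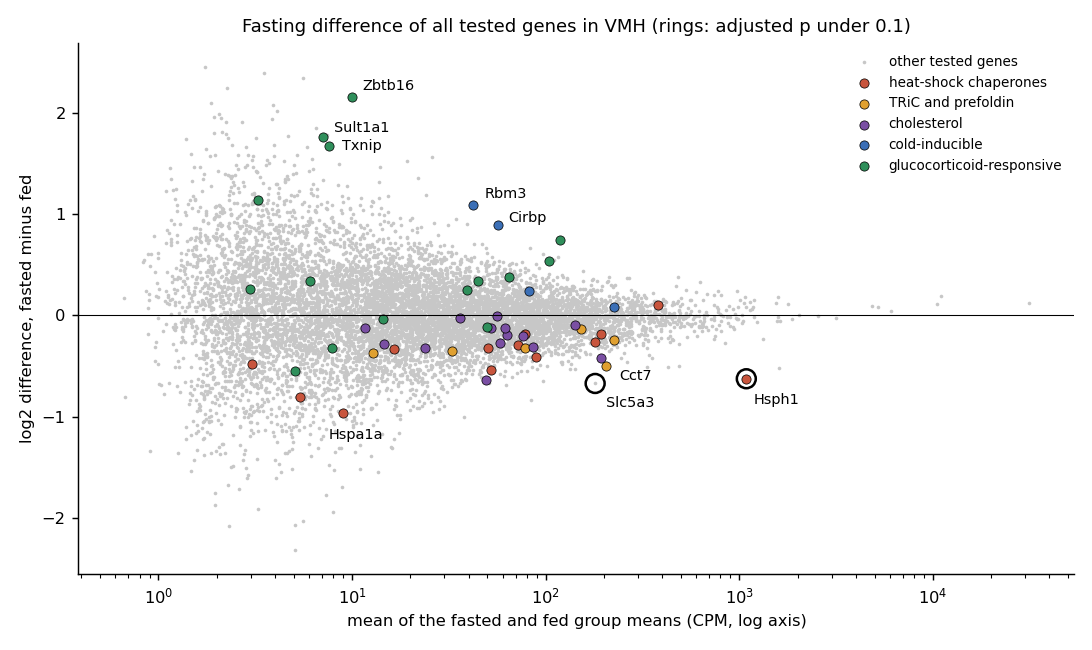
Log2 difference between fasted and fed VMH libraries (vertical axis) against the mean of the group means in CPM (horizontal log axis) for the 9594 tested genes, with 5 gene lists in colour and rings around the 2 genes past an adjusted p of 0.1. Hsph1 (-0.63) stands out among genes of its level, while low genes scatter widely to both sides of 0.

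Hsph1 (ENSMUSG00000029657, GRCm38 chr5:149614287-149636376, minus strand, protein coding) was the gene with the smallest p. Its fed libraries were at 1153, 1474, 1377, 1264 and 1392 CPM. Its fasted libraries ranged from 739 to 988 CPM with a median of 842. The highest fasted library lay below the lowest fed library. Group means were 843 ± 97.9 CPM (SD, n = 6) in fasted and 1332 ± 124.9 CPM (n = 5) in fed mice, a log2 difference of -0.63 ± 0.07 (SE) with an adjusted p of 6.42e-05 by limma. Within batches 1, 2 and 3 the difference was -0.64, -0.76 and -0.48. Hsph1 passed the threshold in each of 11 alternative fits, with adjusted p from 4.41e-06 to 0.0935, the highest without batch as a covariate, and in each of 11 fits that left out 1 library, where its log2 difference was -0.67 to -0.59 and its adjusted p 8.04e-05 to 0.00102.

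Slc5a3 (ENSMUSG00000089774, chr16:92058322-92087473, plus strand, protein coding) was at 132, 211, 242, 288 and 268 CPM in fed mice, and at 82.1 to 164 CPM with a median of 142 in fasted mice. The 3 libraries of batch 1 were the lowest of their groups, and Fed-111 lay within the fasted range, so the groups overlapped. Means were 132 ± 35.1 CPM in fasted and 228 ± 60.9 CPM in fed mice, a log2 difference of -0.67 ± 0.12 with an adjusted p of 0.0422 by limma. It was lower in fasted mice in all 3 batches, by -0.55, -0.62 and -0.80, as were 13.6% of all tested genes; 12.4% were higher in all 3. The call of Slc5a3 was lost without batch as a covariate (adjusted p 0.928), with log2 depth as a covariate (0.326) and in 7 of the 11 fits without 1 library, those without Fast-101 (0.270, the highest), Fast-305, Fast-311, Fed-111, Fed-127, Fed-308 or Fed-313. Its log2 difference was -0.78 to -0.65 over the alternative fits and -0.73 to -0.63 over the fits without 1 library. Slc5a3 overlaps exons of Mrps6 and Gm49711, and the use of strand and the sharing of reads in counting are not given in the sources used here. Mrps6, a mitochondrial ribosomal protein, was at 22.1 ± 4.84 CPM in fasted and 17.1 ± 4.63 CPM in fed mice, a log2 difference of 0.34 ± 0.28 (adjusted p 0.895), opposite in sign to that of Slc5a3.

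**Figure D2:**
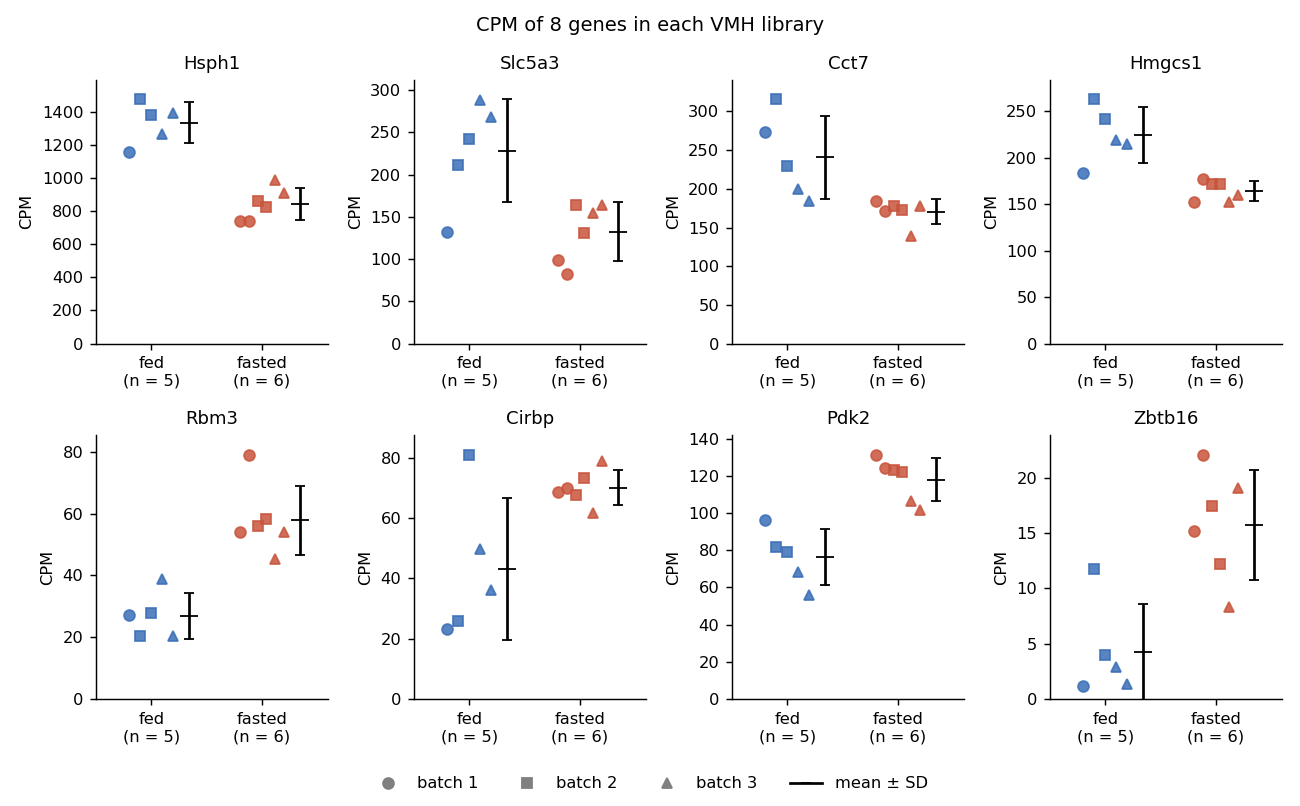
CPM (vertical axes, from 0) of 8 genes in each VMH library, fed on the left and fasted on the right, with marker shape for batch and a bar for mean ± SD (n = 5 fed, n = 6 fasted). Hsph1, Cct7, Hmgcs1, Rbm3 and Pdk2 do not overlap between the groups; Slc5a3, Cirbp and Zbtb16 overlap through 1 fed library each. The SD bar of fed Zbtb16 reaches below 0 and ends at the axis.

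Sequences around the starts of these genes are shown because of heat-shock factor 1 (Hsf1), which drives chaperone genes. Hsf1 binds repeats of GAA in alternating orientation, so that a pair of half-sites reads TTCNNGAA or GAANNTTC. Both forms read the same on either strand. The first line holds the 210 bases before the outermost annotated Hsph1 transcript (chr5:149636377-149636586, minus strand). The second holds 30 bases around the only TTCNNGAA match in the RefSeq promoter window (chr5:149636351-149636380, minus strand), with the match in capitals. The third holds the 198 bases before the annotated start of Mrps6, which lies upstream of that of Slc5a3 (chr16:92058072-92058269, plus strand). They come from RefSeq on GRCm38.p6.

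Hsph1 upstream: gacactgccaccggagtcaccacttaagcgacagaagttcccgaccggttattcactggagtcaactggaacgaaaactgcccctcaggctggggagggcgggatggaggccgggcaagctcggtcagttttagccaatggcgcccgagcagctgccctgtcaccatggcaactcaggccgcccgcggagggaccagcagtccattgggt
Hsph1 element: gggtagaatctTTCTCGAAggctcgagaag
Slc5a3 upstream: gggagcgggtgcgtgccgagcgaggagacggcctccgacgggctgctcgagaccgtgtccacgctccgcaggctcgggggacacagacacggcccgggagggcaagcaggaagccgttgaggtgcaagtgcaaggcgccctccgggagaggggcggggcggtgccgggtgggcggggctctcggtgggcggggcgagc

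The capitals in the Hsph1 element mark TTCTCGAA, 26 to 33 bases before the RefSeq start. That start lies inside the annotated gene, and the match falls within the span of the outermost annotated transcript, not before it. TTCNNGAA was found in 7.17% of the 32851 RefSeq promoter windows of 250 bases and GAANNTTC in 6.69%, and 14.5% of 27025 genes had at least 1 of them. A list of cytosolic heat-shock chaperones and other Hsf1 targets had 12 tested genes with a promoter entry. Of these, 5 held at least 1 form (Hsph1, Hspa1a, Dnajb6, Hspe1 and Fkbp4). Hsf1 targets were put on this list on purpose, so the share is no test of Hsf1. The core of the tonicity element, TGGAAA on either strand, was in 18.6% of windows and in no part of the Slc5a3 window. A match is a description of letters, not of binding, and a window without one says nothing of the factor.

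Hsph1 was one of 13 tested members of a list of 37 cytosolic heat-shock chaperones and other Hsf1 targets. The other 24 genes of the list were not analysed here, so the counts and sums cover 13 genes only. Of these, 1 passed the threshold (0.0208% of all genes did). At an unadjusted p under 0.05, 4 were lower and 0 were higher, against 3.55% and 3.43% of all genes. In 12 of the 13 the log2 difference was below 0 (50% of all genes were), and the median was -0.33 (-5.18e-05 over all genes). Cryab, a small heat-shock protein, was at 45.2 ± 17.5 CPM in fasted and 59.1 ± 19.9 CPM in fed mice (log2 difference -0.54 ± 0.20, adjusted p 0.619). Its fed libraries were at 94.2, 52.8, 45.0, 53.8 and 49.6 CPM, and the groups overlapped. Ptges3, the p23 co-chaperone of Hsp90, was at 75.8 ± 21.3 against 103 ± 20.5 CPM (-0.41 ± 0.17, adjusted p 0.647). Fkbp4, an Hsp90-bound immunophilin of steroid receptor complexes, was at 165 ± 20.6 against 196 ± 35.3 CPM (-0.26 ± 0.12, adjusted p 0.709). Hspa1a, the stress-induced Hsp70, was low, at 5.83 ± 4.32 against 12.1 ± 7.37 CPM, with a log2 difference of -0.97 ± 0.55 and values of -1.71, -1.58 and 0.14 in the 3 batches. Hsbp1, an inhibitor of Hsf1, was the member above 0, at 397 ± 34.9 against 366 ± 64.0 CPM (0.10 ± 0.09).

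The summed CPM of the 13 chaperone genes was 1779 to 2054 in fasted and 2348 to 2664 in fed libraries and did not overlap. CPM is not corrected for transcript length, so long and abundant genes weigh most in such a sum, and Hsph1 made up 48.6% of it. Without Hsph1 the sums were 1017 to 1123 in fasted and 1084 to 1324 in fed libraries, and they overlapped. The ratio of fasted to fed without Hsph1 was 0.82, 0.88 and 0.95 in batches 1, 2 and 3.

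The TRiC chaperonin, which folds actin and tubulin, and its partner prefoldin had 6 tested members of 14 listed, each with a log2 difference below 0 (50% of all genes were) and a median of -0.34. At an unadjusted p under 0.05, 3 were lower (3.55% of all genes were), and 0 passed the threshold. Cct7, a TRiC subunit, was at 273, 316, 230, 199 and 185 CPM in fed mice and at 139 to 185 CPM, median 175, in fasted mice. The lowest fed library and the highest fasted library nearly touched. Its log2 difference was -0.50 ± 0.12 with an adjusted p of 0.281, and -0.62, -0.62 and -0.29 in the 3 batches. Tcp1, the alpha subunit of TRiC, was at 204 ± 40.3 against 246 ± 25.9 CPM (-0.24 ± 0.11, adjusted p 0.712), and Cct6a at 68.5 ± 14.5 against 88.8 ± 16.3 CPM (-0.33 ± 0.16, adjusted p 0.715). Of 9 tested chaperones and stress genes of the endoplasmic reticulum, whose median was -0.21, 1 had an unadjusted p under 0.05 (6.98% of all genes had one). This was Sesn2, a stress-induced inhibitor of mTORC1, at 6.05 ± 3.44 against 14.8 ± 9.07 CPM (-1.35 ± 0.46, adjusted p 0.547), with the library Fed-111 at 30.2 CPM.

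**Figure D3:**
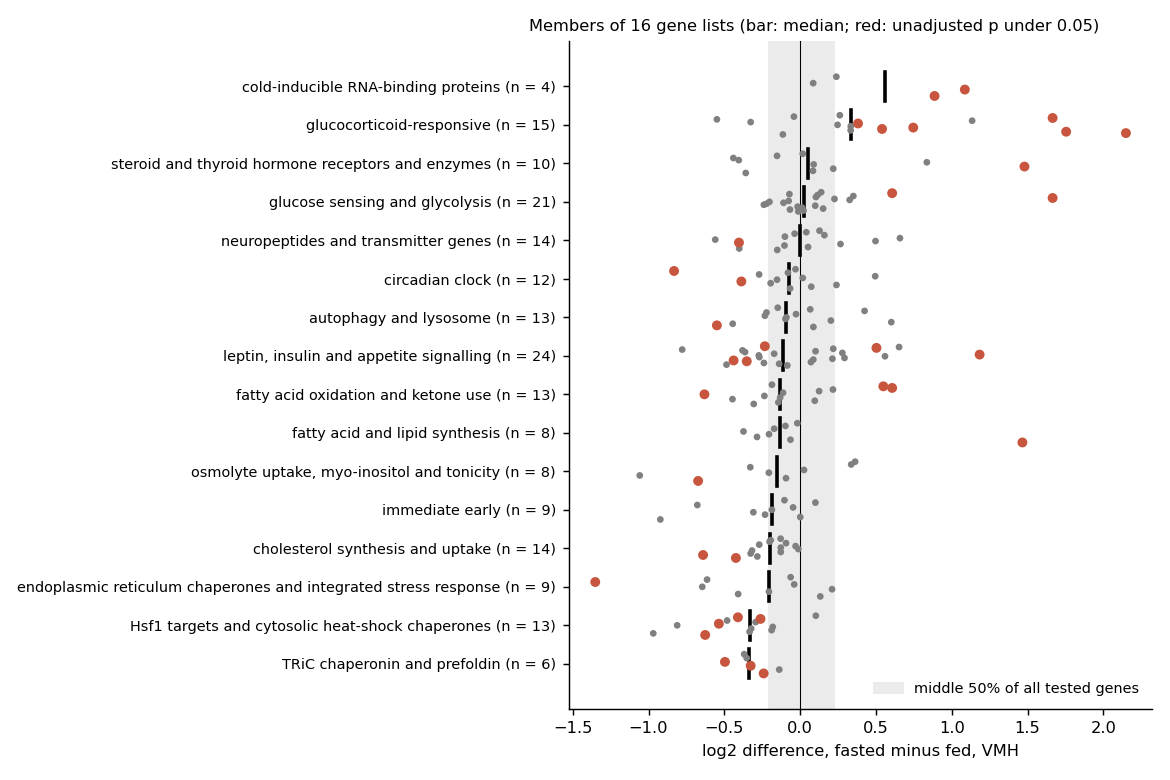
Log2 difference between fasted and fed VMH libraries (horizontal axis) for each tested member of 16 gene lists (rows, sorted by median), with a black bar at the median, red points at an unadjusted p under 0.05 and a grey band over the middle 50% of all tested genes. The medians run from -0.34 in TRiC and prefoldin to 0.56 in cold-inducible RNA-binding proteins.

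Apart from Slc5a3, the 7 other tested genes of osmolyte uptake, myo-inositol and tonicity had an unadjusted p above 0.05. Of all genes, 6.98% had one under 0.05. The list had a median of -0.15. Slc2a13, the proton-coupled myo-inositol carrier, was at 96.8, 142, 110, 118 and 132 CPM in fed mice and 76.6 to 120 CPM in fasted mice (log2 difference -0.21 ± 0.13, adjusted p 0.818). Slc6a6, the taurine carrier, differed by -0.09 ± 0.12, and Wnk1, a kinase that senses chloride and osmolarity, by 0.03 ± 0.08. Slc7a5, a large neutral amino acid carrier, was at 49.2 against 35.9 CPM (0.36 ± 0.19, adjusted p 0.750). The lower level in this group was thus past the threshold in 1 carrier, Slc5a3 (0.0208% of all genes passed it).

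The cold-inducible RNA-binding proteins, whose messages accumulate when temperature drops, had 4 tested members of 5 listed, all above 0 (50% of all genes were) with a median of 0.56. At an unadjusted p under 0.05, 2 of them were higher (3.43% of all genes were). Rbm3 had the third smallest adjusted p of all genes (0.161 by limma), short of the threshold. It was at 27, 20.4, 27.7, 38.7 and 20.3 CPM in fed mice and at 45.5 to 79.0 CPM, median 55.1, in fasted mice. Every fasted library lay above every fed library, and the log2 difference was 1.09 ± 0.22, with 1.26, 1.25 and 0.81 in the 3 batches. Rbm3 passed the threshold in the fit over all 4 nuclei (adjusted p 0.0318), with library weights (0.0859), without Fast-85 and without Fed-308 (0.0399). It did not pass in the other 9 alternative fits, with adjusted p up to 0.795 (log2 depth as a covariate). Nor did it pass in the other 9 fits without 1 library, with adjusted p up to 0.566 (without Fast-100). It shares its locus with the antisense gene Rbm3os, and reads of the 2 may not have been separated.

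Cirbp was at 23.3, 25.9, 81.0, 49.8 and 36.0 CPM in the fed mice in the same order and at 61.7 to 78.9 CPM in fasted mice. Fed-127 alone lay above the fasted range. The log2 difference was 0.89 ± 0.24 (adjusted p 0.450 by limma), and without Fed-127 it was 1.16 with an adjusted p of 0.0718. Cirbp did not pass the threshold in the other 10 fits without 1 library (log2 difference down to 0.66, adjusted p up to 0.796). It passed in 0 of 11 alternative fits. The other members, Rbmx and Hnrnpdl, differed by 0.24 ± 0.20 and 0.09 ± 0.11. Body temperature of the mice was not analysed here.

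Of 36 listed genes that respond to the glucocorticoid receptor, 15 were tested, of which 6 were higher at an unadjusted p under 0.05 (3.43% of all genes were), 0 were lower and 0 passed the threshold. The median was 0.33. Zbtb16, a transcription factor, was at 1.16, 11.7, 4.0, 2.94 and 1.35 CPM in fed mice and at 8.28 to 22.0 CPM, median 16.3, in fasted mice, where only Fed-125 lay within the fasted range. Its log2 difference was 2.15 ± 0.47 (adjusted p 0.223 by limma), and without Fed-125 its adjusted p was 0.0683. Zbtb16 did not pass the threshold in the other 10 fits without 1 library (adjusted p up to 0.580). It passed in 0 of 11 alternative fits (adjusted p up to 0.795, with log2 depth as a covariate). Sult1a1, a sulfotransferase, was at 1.5 to 4.14 CPM in fed and 5.34 to 23.3 CPM in fasted mice, without overlap (1.75 ± 0.45, adjusted p 0.386).

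The metallothioneins Mt2 and Mt1, which bind zinc, were at 152 ± 89.0 against 86.6 ± 79.2 CPM and 126 ± 51.2 against 81.4 ± 47.8 CPM in fasted and fed mice. The 3 libraries of batch 1 were the highest of their groups in Mt2, and Fed-111 of batch 1 was at 227 CPM of Mt2, above 5 of the 6 fasted libraries. With batch in the model the log2 differences were 0.75 ± 0.19 (adjusted p 0.377) and 0.54 ± 0.17 (adjusted p 0.509). Txnip, which binds thioredoxin and limits glucose uptake, was at 11.9 ± 7.12 against 3.34 ± 2.63 CPM, with log2 differences of 2.29, 2.79 and 0.12 in the 3 batches (1.67 ± 0.55 over all, adjusted p 0.536). Klf9 was at 73.3 ± 14.8 against 55.6 ± 4.17 CPM (0.38 ± 0.17, adjusted p 0.709). Of the 15 genes, 4 lay below 0, among them Klf15 at -0.33 ± 0.44. Astrocytes are rich in metallothionein. Of 7 tested astrocyte markers, 2 were higher at an unadjusted p under 0.05, beside 3.43% of all genes (Gjb6, 67.7 against 47.8 CPM, and Agt, 103 against 73.6 CPM) and the median was 0.25. Their summed level was 380 to 468 CPM in fasted and 330 to 445 CPM in fed libraries. The part of cell composition in the glucocorticoid list was not tested.

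Fuel genes were described next. Pdk2, a kinase that turns off pyruvate dehydrogenase and so spares glucose, was at 96.3, 81.8, 79.2, 68.1 and 56.0 CPM in fed mice and at 102 to 131 CPM, median 122, in fasted mice. The groups did not overlap, and the log2 difference was 0.61 ± 0.13 (adjusted p 0.223 by limma), with 0.40, 0.60 and 0.75 in the 3 batches. It passed the threshold with library weights only (adjusted p 0.0859). Ucp2, a mitochondrial carrier that favours fatty acid use, was at 137 ± 47.8 against 84.8 ± 20.5 CPM (0.55 ± 0.15, adjusted p 0.410). Bdh1, which interconverts ketone bodies in mitochondria, was at 13.4 ± 2.60 against 20.5 ± 6.53 CPM (-0.63 ± 0.29, adjusted p 0.712).

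Of 13 tested genes of fatty acid oxidation and ketone use, these were the 3 with an unadjusted p under 0.05 (6.98% of all genes had one), and the list's median was -0.13. The summed CPM of the 14 measured members was 572 to 615 in fasted and 481 to 568 in fed libraries, without overlap. Without Ucp2, which made up 19.9% of the sum, the ranges were 396 to 519 and 398 to 502 CPM and overlapped. Among 21 genes of glucose sensing and glycolysis the median was 0.02, and only Pdk2 and Txnip had an unadjusted p under 0.05 (6.98% of all genes had one). Abcc8, a subunit of the ATP-sensitive potassium channel, had a log2 difference of 0.23 ± 0.30.

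Of 28 listed genes of cholesterol synthesis and uptake, 14 were tested and the other 14 were not analysed here. Each tested gene had a log2 difference below 0 (50% of all genes did), with a median of -0.20, a lowest value of -0.64 and a highest of -0.01. At an unadjusted p under 0.05, 2 were lower (3.55% of all genes were), and 0 passed the threshold. Hmgcs1, the cytosolic HMG-CoA synthase at the start of the pathway, was at 184, 263, 241, 219 and 215 CPM in fed mice and at 153 to 177 CPM, median 166, in fasted mice, without overlap. Its log2 difference was -0.42 ± 0.11 (adjusted p 0.386). Idi1, which makes dimethylallyl diphosphate, was at 38 ± 12.9 against 60.9 ± 10.4 CPM (-0.64 ± 0.20, adjusted p 0.516), and Msmo1, a sterol oxidase, at 76.5 ± 10.8 against 96.1 ± 24.1 CPM (-0.32 ± 0.16, adjusted p 0.728).

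The summed CPM of the 14 cholesterol genes was 783 to 883 in fasted and 952 to 1068 in fed libraries, and without Hmgcs1, the most abundant, it was 630 to 711 and 728 to 825. Neither sum overlapped between the groups. The ratio of fasted to fed was 0.83, 0.86 and 0.83 in batches 1, 2 and 3. Oligodendrocytes make much of the brain's cholesterol. Of 12 tested oligodendrocyte markers, 1 was higher (Cldn11) and 1 lower (Ugt8a) at an unadjusted p under 0.05 (3.43% and 3.55% of all genes were), and their summed level was 1297 to 1642 CPM in fasted and 1254 to 1971 CPM in fed libraries. The part of cell composition was not tested. Among 8 genes of fatty acid and lipid synthesis the median was -0.13, and Acacb, at 4.52 ± 3.64 against 1.64 ± 1.72 CPM, was the one with an unadjusted p under 0.05 (adjusted p 0.703), where 6.98% of all genes had one.

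**Figure D4:**
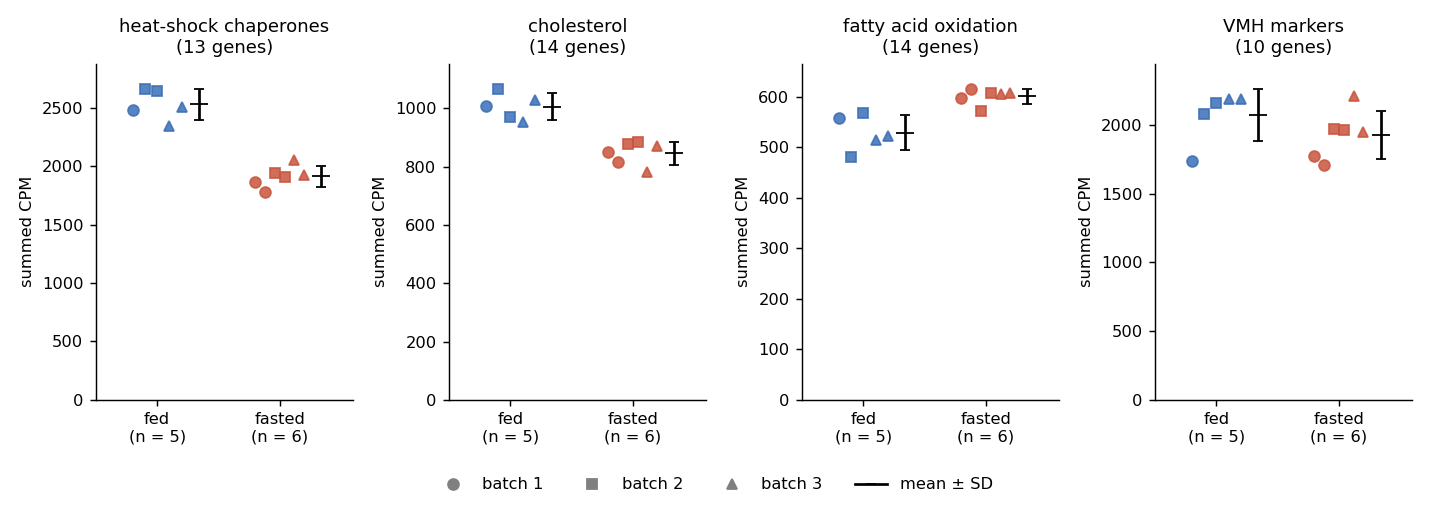
Summed CPM (vertical axes, from 0) of the measured members of 3 gene lists and of 10 VMH markers (Dlk1 included) in each library, fed on the left and fasted on the right, with marker shape for batch and a bar for mean ± SD. The chaperone and cholesterol sums of fasted libraries lie below those of fed libraries, the fatty acid oxidation sums lie above, and the VMH marker sums overlap. Sums of the other lists grouped by role, not shown, overlapped between fasted and fed libraries. Among them were TRiC and prefoldin (579 to 739 against 732 to 872 CPM) and the cold-inducible list (378 to 523 against 326 to 447). These 2 did not overlap without their most abundant member. The glucocorticoid list gave 375 to 851 against 341 to 613 CPM.

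Genes of leptin, insulin and appetite signalling gave 24 tested members, 0 past the threshold, 2 higher and 3 lower at an unadjusted p under 0.05 (3.43% and 3.55% of all genes were) and a median of -0.11. Cpe, the carboxypeptidase that processes neuropeptides, was at 904, 1613, 1606, 1594 and 1677 CPM in fed mice and 940 to 1403 CPM in fasted mice. Fed-111 lay below the fasted range and the other fed mice above it. The log2 difference was -0.23 ± 0.08 (adjusted p 0.547), with a positive value of 0.14 in batch 1. Irs4, an insulin receptor substrate of the hypothalamus, was at 182 ± 44.9 against 242 ± 48.2 CPM (-0.35 ± 0.14, adjusted p 0.619). Ghsr, the ghrelin receptor, was at 1.74, 9.84, 1.0, 2.26 and 1.52 CPM in fed mice and 3.35 to 9.80 CPM in fasted mice, with Fed-125 above each fasted library (1.18 ± 0.55, adjusted p 0.712). Mc3r and Mc4r, the melanocortin receptors, differed by 0.56 and -0.27, and Foxo1 and Foxo3, transcription factors held back by insulin, by 0.21 and 0.29, with unadjusted p above 0.05 by limma.

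Among the genes that the study followed in the leptin and melanocortin pathway, Npy was at 6.79 ± 6.26 against 4.06 ± 4.44 CPM (log2 difference 0.50, 95% interval -0.67 to 1.67). Lepr, the leptin receptor, was at 17.8 ± 10.5 against 18.3 ± 7.83 CPM (-0.08, interval -0.92 to 0.75), and Nhlh2, a transcription factor of Pcsk1, at 4.26 ± 2.65 against 3.43 ± 4.49 CPM (0.65, interval -0.79 to 2.09). Each interval holds differences of over 1.5 times in both directions, so a difference of that size was not detectable with these libraries. The log2 differences of Lepr (-0.37 to 0.41 over the fits without 1 library) and Nhlh2 (-0.076 to 1.37) turned direction without Fed-111. The study reported the rise of Npy and Lepr with fasting in ARC, a different nucleus. In the ARC libraries used here their log2 differences were 1.35 ± 0.16 and 1.49 ± 0.31 (adjusted p 0.00114 and 0.0867 by limma). Socs3 did not pass the filter on low values in VMH. Fezf1 was at 204 ± 25.2 against 238 ± 27.3 CPM (-0.21, interval -0.44 to 0.03, adjusted p 0.766).

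Neuropeptide and transmitter genes had a median of 0.00 over 14 tested members. Tac1, the substance P precursor, which VMH neurons express, was at 69.0 ± 16.1 against 89.5 ± 13.2 CPM (-0.40 ± 0.17, adjusted p 0.672). It was the one member with an unadjusted p under 0.05, near the share of all genes (6.98%). Slc17a6, the vesicular glutamate transporter of these neurons, was at 537 against 634 CPM (-0.15 ± 0.08, adjusted p 0.766). Of 10 steroid and thyroid hormone genes, Cyp19a1, the aromatase, was at 3.76 ± 2.86 against 1.30 ± 1.57 CPM (1.48 ± 0.60, adjusted p 0.651). Of 9 immediate early genes, used as marks of recent neuronal activity, 0 had an unadjusted p under 0.05, near the 6.98% of all genes. The median of this list was -0.19. Egr1 was at 75 ± 19.3 against 81.3 ± 19.5 CPM (-0.19 ± 0.18), and Fosl2 at 9.64 ± 9.53 against 15.5 ± 5.69 CPM (-0.92 ± 0.47).

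Of 12 clock genes, 2 were lower at an unadjusted p under 0.05 (3.55% of all genes were). Bhlhe40, a repressor that also responds to feeding, was at 141, 89.6, 133, 117 and 63.1 CPM in fed mice and 33.7 to 86.9 CPM in fasted mice (-0.83 ± 0.23, adjusted p 0.455), with -1.73, -0.70 and -0.36 in the 3 batches. Clock was at 121 ± 40.1 against 161 ± 28.9 CPM (-0.39 ± 0.17, adjusted p 0.708), while Per2, Per3 and Bhlhe41 differed by -0.07 to 0.07. Of 13 genes of autophagy and the lysosome, Becn1, which starts autophagosome formation, was the one with an unadjusted p under 0.05, near the 6.98% of all genes. It was at 96.6, 62.3, 110.7, 100.2 and 111.3 CPM in fed mice and at 53.0 to 81.3 CPM in fasted mice, and Fed-125 lay inside the fasted range (-0.55 ± 0.17, adjusted p 0.516).

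Of 9594 tested genes, 26 averaged 5 CPM or more in their higher group, with no overlap and an unadjusted p under 0.01. In fasted mice 11 were higher and 15 lower. Over all genes 0.5% had no overlap, and that of these 26 follows from how they were picked. Among those lower, Mesd, a chaperone for receptors of the LDL receptor family, was at 292, 309, 304, 289 and 330 CPM in fed mice and 176 to 259 CPM, median 223, in fasted mice (log2 difference -0.47 ± 0.11, adjusted p 0.223). Hes5, a target of Notch signalling, was at 14 to 32.9 CPM in fed and 3.05 to 13.5 CPM in fasted mice (-1.55 ± 0.35, adjusted p 0.223). Atp1b3, a subunit of the sodium pump, was at 102 ± 14.2 against 140 ± 21.7 CPM (-0.46 ± 0.13, adjusted p 0.455).

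Among those higher, Ass1, an enzyme of arginine synthesis, was at 56.0 to 78.5 CPM in fed and 86.1 to 106 CPM in fasted mice (0.45 ± 0.15, adjusted p 0.526). Rasgrf1, a calcium-regulated activator of Ras, was at 658 to 765 CPM in fed and 780 to 989 CPM in fasted mice, a small log2 difference of 0.24 ± 0.07 (adjusted p 0.474). Daam2, a formin of Wnt signalling, was at 25.2 to 39.6 against 42.0 to 75.3 CPM (0.71 ± 0.21, adjusted p 0.474). Zfp36, which speeds the decay of messages with AU-rich elements, was at 0 to 2.54 CPM in fed and 3.9 to 13.8 CPM in fasted mice (2.02 ± 0.57, adjusted p 0.455), a range of few reads per library. Further non-overlapping genes of the same kind were Plekhg5, Gpr139, Vstm5 and 9430041J12Rik among the higher and Rrad, Zfp61, Ckap4, Ccdc137, Zfp84, Zcchc2 and Zzz3 among the lower. Their log2 differences were 0.87, 1.30, 1.32 and 1.94, and -1.28, -1.22, -0.92, -0.81, -0.76, -0.61 and -0.49. None of these genes passed the threshold. 9430041J12Rik, at 0 to 2.42 CPM in fed mice, is an antisense gene whose exons overlap Ttyh1, and reads of the 2 may not have been separated. Exons of several other genes named here, Sult1a1 and Zfp36 among them, also overlap genes on the other strand.

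The last question was whether the VMH responded differently from the other nuclei, which came largely from the same mice. Among the 41 libraries used, Fast-85 gave a VMH library alone and Fed-92 a DMH library alone. Fitted separately, 17 of 9654 genes passed the threshold in ARC (0.176%), 1 of 9751 in DMH (0.0103%) and 35 of 9529 in PVN (0.367%). In a fit over all 41 libraries, the VMH response was compared with the mean response of ARC, DMH and PVN. Of 10120 genes, 0 differed at an adjusted p under 0.1 (0%) by limma, and 507 did at an unadjusted p under 0.05 (5.01%). The smallest adjusted p was 0.381.

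Hsph1 had a log2 difference between fasted and fed mice of -0.71 ± 0.10 in ARC, -0.82 ± 0.11 in DMH and -0.65 ± 0.08 in PVN, beside -0.63 ± 0.07 in VMH. Its adjusted p was 0.00486, 0.00321 and 0.00190 in the other nuclei. The VMH response differed from their mean by 0.10 with a 95% interval of -0.13 to 0.32. As the nuclei share most mice, they are not independent repeats of the VMH result. Slc5a3 was at -0.29 ± 0.15, -0.41 ± 0.12 and -0.30 ± 0.13 in ARC, DMH and PVN, short of the threshold in each, and the VMH response was lower than their mean by -0.37 (interval -0.70 to -0.04, adjusted p 0.939). Rbm3 was at 0.85 ± 0.22, 0.45 ± 0.24 and 0.54 ± 0.25, and Pdk2 at 0.46 ± 0.21, 0.26 ± 0.16 and 0.72 ± 0.15, past the threshold in PVN (adjusted p 0.0637).

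The 3 genes with the smallest p for a response of VMH unlike that of the other nuclei were Kcnf1, Unc13c and Fgf11. Kcnf1, a modulatory potassium channel subunit, was at 31.4, 19.3, 46.5, 37.3 and 37.5 CPM in fed VMH libraries and at 6.12 to 28.6 CPM in fasted ones. Its log2 difference was -0.95 ± 0.33 in VMH and 0.19, 0.57 and 0.51 in ARC, DMH and PVN, a difference between responses of -1.39 (interval -2.01 to -0.76, adjusted p 0.381). Unc13c, a priming factor of synaptic vesicles, differed by 0.73 ± 0.26 in VMH and by -0.39, -0.24 and -0.38 elsewhere (adjusted p of the difference 0.381). Fgf11, an intracellular relative of the fibroblast growth factors, differed by -1.53 ± 0.45 in VMH and by 0.95, 0.98 and 0.24 elsewhere (adjusted p 0.461). Mesd and Becn1, lower in fasted VMH libraries, were at 0.05, 0.05 and -0.10 and at -0.20, 0.37 and 0.01 in ARC, DMH and PVN. For these 2 genes the difference between responses had adjusted p values of 0.882 and 0.893.

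**Figure D5:**
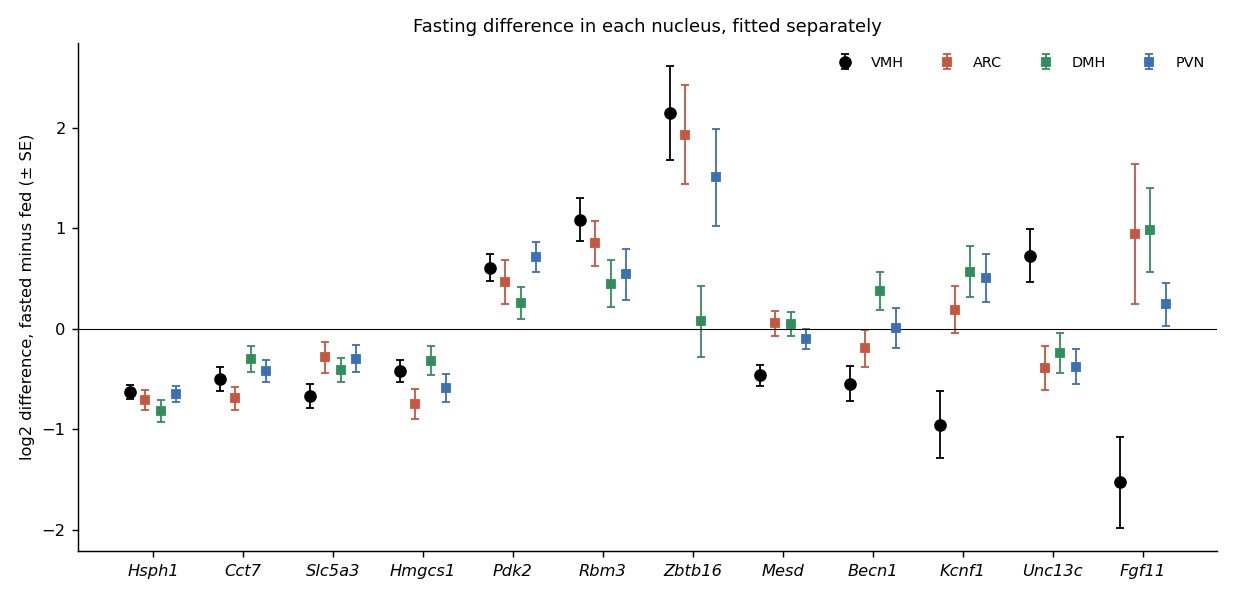
Log2 difference between fasted and fed libraries (vertical axis, ± SE) of 12 genes in VMH and in ARC, DMH and PVN, each nucleus fitted separately. Hsph1 lies between -0.82 and -0.63 in the 4 nuclei, while Kcnf1, Unc13c and Fgf11 have one sign in VMH and the other elsewhere.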

How the data were processed

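RNA was sequenced from laser-captured nuclei after amplification with the Ovation RNA-Seq V2 kit. Per the labels, the submitters' processing notes name CASAVA 1.7, TopHat2 2.0.11, Cufflinks 2.2.1, edgeR and limma and the GRCm38 build. The authors deposited CPM per Ensembl gene, and how reads were counted per gene is not given in the sources used here. Of the 10127 genes, 9891 had a symbol and coordinates in GENCODE M21. No identifier lay between ENSMUSG00000000861 and ENSMUSG00000028747, so genes in that range (Agrp, Pomc and Pcsk1 among them) were not analysed here, and each gene list is incomplete. For 2 columns no sample had a matching label, and they were left out. Depth was read from the low values, of which 97.6% to 98.2% were whole multiples of the worth of 1 read in VMH (tolerance 0.05 of a step). Since some values were below 1 read, no count test was run. Libraries the authors judged outliers had been left out by them.

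Genes with at least 1 CPM in 5 or more VMH libraries were tested on R 4.3.3 by limma 3.58.1, with a mean-dependent prior variance, on log2(CPM + 0.5), with batch as a covariate, 2-sided, with Benjamini-Hochberg adjustment over all genes and a threshold of 0.1. Fold changes of low genes are understated on this scale. Responses were compared between nuclei by an interaction contrast in 1 fit of 41 libraries with batch.

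Genes named were those past the threshold, up to 12 rises and 12 falls with at least 5 CPM in the higher group, no overlap and an unadjusted p under 0.01, the 3 smallest p of each of 16 gene lists, genes the study followed and the 3 smallest p of the contrast between nuclei. Other list members and markers were singled out after their values were seen. The members and lists were chosen with earlier results of these data known, and p-values measure the spread between mice of these 3 batches. Fasted and fed mice differ, so mouse numbers pair no VMH libraries. They pair nuclei of 1 mouse, and a mouse block was an alternative for the contrast between nuclei only.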

Additional observations from a re-analysis of the deposited data

Results flagged for a closer look

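In 146 groups of libraries examined for 1 value far from the others of its group, 9 such values were found. Chance gives about 1 in 20, or 7.3, where groups are independent. These groups reuse the same 11 libraries, keep batch differences and hold genes picked partly by their p, so 7.3 is a rough guide only. In Fast-86, Plekhg5 was at 69.5 CPM, with the other fasted libraries at 18.6 to 25.3. Rrad was at 0.919 CPM in the same library (others 5.40 to 9.76), and Rbmx at 37.4 CPM (others 90.1 to 114). In Fast-305, Cct7 was at 139 CPM (others 171 to 185). In Fed-111, the only fed library of batch 1, Cpe was at 904 CPM (other fed libraries 1594 to 1677), Cryab at 94.2 CPM (others 45.0 to 53.8) and Zfp61 at 34.6 CPM (others 18.2 to 21.5). 9430041J12Rik was at 0 in that library (others 1.35 to 2.42 CPM). In Fed-125, Becn1 was at 62.3 CPM (others 96.6 to 111.3). Of the 9 values, 4 came from Fed-111 and 3 from Fast-86, both of batch 1. Whether batch or depth had a part in them was not tested.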

How the results depend on the processing

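The count of 2 genes past the threshold in VMH was 4 in the fit over all 4 nuclei (Frmpd1, Hsph1, Rbm3 and Slc5a3), 1 without batch, 1 with log2 depth as a covariate and 5 with library weights (Gm10308, Hsph1, Pdk2, Rbm3 and Slc5a3). It was 2 under the other pseudocounts, filters, scalings and robust eBayes. Without 1 library it was 1 to 5, with 1 (Hsph1) without Fast-101, Fast-305 or Fast-311 or Fed-111 or Fed-313, and 5 without Fast-85. The 2 genes were Cirbp and Hsph1 without Fed-127, and Hsph1 and Rbm3 without Fed-308. The count of 0 genes with a VMH response unlike that of the other nuclei stayed 0 under each such setting, the replicate block by mouse included, where 523 genes had an unadjusted p under 0.05. Without 1 library it was 0 to 1, with Kcnf1 past the threshold without Fed-125. The block changed no call. Of 792 values without 1 library for the 72 genes chosen by the naming rule, 775 kept their direction and call, as did 780 of 785 under the other settings, and 6 turned direction. The log2 difference of Npas4 was -1.06 to 0.078, that of Lepr -0.37 to 0.41 and that of Nhlh2 -0.076 to 1.37. Each turned when Fed-111 was left out, and Lepr also without Fast-86, Fast-305 or Fed-125. Outside that rule, the small differences given for Wnk1, Mc4r, Pmch, Per2, Per3 and Bhlhe41 also turned direction in at least 1 fit without a library. The cause was not tested. Medians of lists moved by over 1 SD between libraries in 9 of 275 fits without 1 library and in 1 of 275 others. Depth limits genes near 1 CPM, where 1 read is worth up to 0.515 CPM.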
